A study of Mus musculus with 14 samples.

Results

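The 7 mouse genes of the mu class of glutathione S-transferases, Gstm1 to Gstm7, were followed in retinal pigment epithelium (RPE) with and without overexpression of Nrf2. The members were chosen by name, with earlier results of these data known, and are 7 of the 34452 mouse genes in the count table, each with 1 row. RNA came from 7 rd1 mice at postnatal day 20, a strain with a loss of function of Pde6b whose rods degenerate early. To ask how Nrf2 changes the transcriptome of the stressed RPE, 1 eye of each mouse had received AAV-Best1-Nrf2 together with AAV-Best1-GFP (the Nrf2 group, n = 7), and the other eye AAV-Best1-GFP alone (the control group, n = 7). Both groups therefore share the rd1 allele, the age and the GFP vector. Best1 is an RPE promoter, the transgene is the human Nrf2 cDNA (gene NFE2L2), and the Nrf2 eye differed from its partner by the transgene and by a second vector. Each library is called by its group and the number of its mouse.

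Glutathione S-transferases join reduced glutathione to electrophilic compounds such as the lipid aldehydes that oxidation releases. The mu class works as cytosolic homodimers and heterodimers, and the resulting conjugates are pumped out of the cell and trimmed to mercapturates. Nrf2 is held in the cytoplasm by Keap1, and under oxidative or electrophilic stress it enters the nucleus, pairs with small Maf proteins and binds antioxidant response elements. Gstm1 is a classical Nrf2 target in mouse liver. The RPE, which faces light, high oxygen and shed outer segments, carries a heavy oxidative load.

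The genes lie side by side on chromosome 3, in the order Gstm5, Gstm7, Gstm6, Gstm3, Gstm2, Gstm1 and Gstm4, within 149074 bases (chr3:107895821-108044894, build GRCm38). Gstm5 is on the plus strand and the others are on the minus strand. No other gene that entered the test lies between them (0 genes). Each has 8 exons in its principal coding transcript, and the coding sequence holds 654 bases in 6 members and 672 in Gstm5. To show how alike the members are, coding exon 5 is given for each, since all 101 of its bases are coding in every member. Capitals mark the bases that differ from Gstm1 at the same position, sequences are written 5′ to 3′ on the gene's strand, and the positions are Gstm1 chr3:108016328-108016428, Gstm2 chr3:107985049-107985149, Gstm3 chr3:107967575-107967675, Gstm4 chr3:108043324-108043424, Gstm5 chr3:107897462-107897562, Gstm6 chr3:107942133-107942233, Gstm7 chr3:107930274-107930374.
Gstm1: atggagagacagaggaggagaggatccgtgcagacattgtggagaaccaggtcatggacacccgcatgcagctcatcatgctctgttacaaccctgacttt
Gstm2: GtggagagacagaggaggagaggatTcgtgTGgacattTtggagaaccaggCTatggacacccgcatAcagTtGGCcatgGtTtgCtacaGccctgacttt
Gstm3: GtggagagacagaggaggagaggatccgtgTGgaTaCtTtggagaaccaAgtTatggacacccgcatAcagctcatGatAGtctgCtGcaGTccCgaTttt
Gstm4: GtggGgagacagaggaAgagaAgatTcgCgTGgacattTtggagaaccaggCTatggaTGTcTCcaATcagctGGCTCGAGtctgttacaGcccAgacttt
Gstm5: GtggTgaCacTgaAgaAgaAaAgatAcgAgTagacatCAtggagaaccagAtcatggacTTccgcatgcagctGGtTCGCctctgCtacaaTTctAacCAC
Gstm6: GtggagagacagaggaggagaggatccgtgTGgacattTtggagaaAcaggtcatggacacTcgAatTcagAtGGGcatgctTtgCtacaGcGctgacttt
Gstm7: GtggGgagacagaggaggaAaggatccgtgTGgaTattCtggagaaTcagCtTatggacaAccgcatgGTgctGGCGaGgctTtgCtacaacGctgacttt
Gstm2 and Gstm6 each differed from Gstm1 at 16 of these bases, Gstm3 at 18, Gstm7 at 21, Gstm4 at 28 and Gstm5 at 29. Over the whole coding sequence, identity ran from 68.0% (Gstm3 with Gstm5) to 89.4% (Gstm1 with Gstm3).

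Such likeness matters for how reads are assigned. The deposited values were taken to be estimated counts, in which a model divides reads between similar transcripts, which was inferred from the rows of the table. Of the 31-base words in Gstm1 transcripts, 28.8% also occurred in another gene, against 37.7% for Gstm3, 12.2% for Gstm2, 11.1% for Gstm5, 9.62% for Gstm6, 3.31% for Gstm4 and 2.62% for Gstm7. None of the shared words of Gstm5 were found in another member (0%). Gstm1 and Gstm3 shared 195 words. The pseudogene Gstm2-ps1, on chromosome 5, shared 339 words with Gstm1, or 54.1% of its own. Gstm3 and Gstm2-ps1 thus shared the largest part of their sequence with other genes, and Gstm4 and Gstm7 the smallest. Among genes with deposited counts only, Gstm5 shared the least (0%), below Gstm7 (2.62%) and Gstm4 (3.31%).

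**Figure D1:**
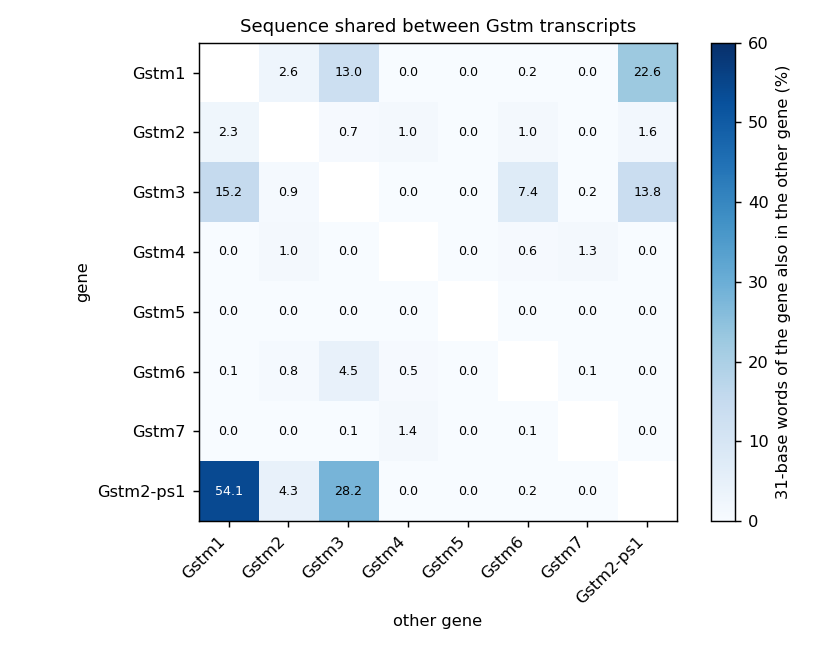
Share of the 31-base words of each gene (rows, GENCODE M21 transcripts) that also occur in another gene (columns), in percent. The largest share, 54.1%, is that of the pseudogene Gstm2-ps1 with Gstm1, while the row of Gstm5 is 0 throughout.

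Library totals ran from 16548349 to 50543008 counts. A pair of libraries stood apart from their groups: control 3 and Nrf2 4 each held 1163 CPM (counts scaled to a library total of 1000000) of the human NFE2L2 transcript, whereas the other Nrf2 libraries held 4577 to 8711 CPM and the other controls 1.12 to 175 CPM. Whether these libraries were exchanged or mixed could not be checked, so both were kept under their labels. Values without mice 3 and 4 are given beside the results below. Human NFE2L2 was also counted in the other control eyes, which by design had received the GFP vector alone. It stood at 51.8 CPM in control 2, 75.5 CPM in control 4 and 175 CPM in control 5. In controls 1, 6 and 7 it stood at 1.12, 1.18 and 7.79 CPM. Values without mice 3 and 4 still include controls 2 and 5, and the source of this transcript was not tested. Of 12 RPE markers, all 12 were counted in every library, and their summed level was 18900 to 26430 CPM in Nrf2 eyes and 12200 to 25480 CPM in control eyes. Of these, 1 passed the paired test described below, Rpe65, which was lower. Sums of markers of other cells also differed between the eyes. The summed level of 7 cone markers was lower in the Nrf2 eye of all 7 mice (17.03 to 94.2 CPM against 41.4 to 1019 CPM), that of 7 rod markers in 6 mice (6.57 to 84.96 against 19.11 to 424.7 CPM), that of 6 Müller glia markers in 6 mice (1472 to 1893 against 674.3 to 2918 CPM), and that of 4 surface epithelium keratins in 6 mice (1916 to 20740 against 1804 to 48100 CPM). Single markers that passed the paired test were the cone genes Opn1sw and Gnat2, both lower, and none of the rod, Müller glia or keratin markers (0). In bulk RNA, fewer cells of a type and less RNA per cell cannot be told apart, and the part of these cells in the Gstm values was not tested.

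The mu class rose almost as a whole. In the paired test (edgeR quasi-likelihood, mouse as a block, Benjamini-Hochberg adjustment over 16289 genes, adjusted p under 0.05), 6 of the 7 members were higher in Nrf2 eyes and none was lower (0), and Gstm6 did not pass. Of all genes tested, 2.94% were called higher and 3.43% were called in either direction. The median log2 fold change was 1.89 over the 7 members and -0.04 over all genes tested. Without mice 3 and 4, 6 members were again called higher, where 2.98% of genes were.

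Gstm1, the major mu-class enzyme of mouse liver, showed the largest fitted change of the family. Its level was 7208, 5400, 5522, 810.1, 3598, 3919 and 7885 CPM in the Nrf2 eyes of mice 1 to 7. The control eyes of the same mice held 45.5, 105.6, 925.2, 99.2, 195.4, 54.8 and 40.7 CPM. Only control 3 and Nrf2 4 made the groups overlap, and the 6 other Nrf2 libraries all lay above every control. The means were 4906 ± 2390 CPM (SD, n = 7) and 209.5 ± 320.1 CPM (SD, n = 7), and the log2 fold change was 5.36 (SE 0.79, adjusted p = 0.0135, edgeR). All 7 mice had more Gstm1 in the Nrf2 eye, by 2.79 (mouse 3) to 7.70 (mouse 7) on the log2 CPM scale with a prior count of 2 (exact two-sided sign-flip test, p = 0.0156, the smallest that 7 pairs allow). Without mice 3 and 4, the control mean was 88.4 ± 65.2 CPM (SD, n = 5) and the log2 fold change 6.31.

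Gstm2, a further cytosolic conjugating enzyme of the class, was measured at 107.4, 83.5, 91.1, 30.1, 70.2, 76.4 and 167.9 CPM in Nrf2 libraries 1 to 7. The controls held 17.6, 22.03, 34.2, 16.8, 30.1, 22.1 and 21.5 CPM. Nrf2 4 again fell among the controls and below control 3, and the other Nrf2 libraries were above all controls. Gstm2 rose by 1.95 on the log2 scale (SE 0.27, adjusted p = 0.0110, edgeR), in 7 of 7 mice.

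Gstm4, at the far end of the cluster, ranged from 9.15 to 46.2 CPM with a median of 25.98 CPM in Nrf2 eyes. In control eyes it kept within 7.24 to 9.56 CPM, with a median of 8.98 CPM. The control spread was the narrowest of the family relative to its mean, and Nrf2 4, at 9.15 CPM, was the 1 Nrf2 library inside it. The log2 fold change of Gstm4 was 1.63 (SE 0.27, adjusted p = 0.0185, edgeR), and all 7 mice were higher, mouse 4 by only 0.20.

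Gstm5, the member most distant in sequence and known from brain and testis, was the most abundant after Gstm1. It was read at 182.1, 148.1, 165.1, 69.7, 126.0, 134.1 and 140.5 CPM in Nrf2 libraries 1 to 7, and at 69.2, 62.5, 68.9, 83.0, 51.3, 34.4 and 61.9 CPM in controls 1 to 7. Mouse 4 was the exception, with slightly less in its Nrf2 eye (log2 difference -0.08), and in the 6 other mice the Nrf2 eye was higher by 1.18 to 1.93. The log2 fold change was 1.30 (SE 0.22, adjusted p = 0.0200, edgeR), and the exact sign-flip p was 0.0312 for 7 pairs.

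Gstm7 was the only member whose groups did not overlap, as was the case for 1.04% of all genes tested. Its Nrf2 libraries 1 to 7 held 20.2, 16.6, 16.9, 7.39, 11.7, 14.6 and 20.1 CPM and the controls 6.13, 4.84, 6.26, 5.83, 3.58, 2.32 and 3.14 CPM. The lowest Nrf2 library was Nrf2 4 and the highest control was control 3. Gstm7 rose by 1.89 on the log2 scale (SE 0.28, adjusted p = 0.0134, edgeR), in 7 of 7 mice.

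Gstm3 and Gstm6 were near the floor of detection. Gstm3 had 77, 15, 41, 6, 34, 19 and 99 counts in Nrf2 libraries 1 to 7 and 1, 3, 13, 0, 1, 1 and 0 counts in controls, so that 6 of the 7 controls had at most 3 counts. Control 3, with 13 counts, was the exception, and its level exceeded that of Nrf2 4. The fitted log2 fold change of Gstm3 was 4.46 (SE 0.83, adjusted p = 0.0265, edgeR), whereas its mean paired difference with a prior count of 2 was 3.27, since at such low counts the size depends on the prior count. Gstm3 counts amounted to 0.0168% to 0.0303% of the Gstm1 counts in Nrf2 libraries and 0% to 0.0949% in controls. Those of Gstm2-ps1, whose log2 fold change was 4.82 (SE 0.99, adjusted p = 0.0373, edgeR), amounted to 0.0353% to 0.0602% and 0% to 0.143%. How far reads of Gstm1 entered either value was not tested.

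Gstm6 had 51, 9, 20, 7, 41, 14 and 92 counts in Nrf2 libraries and 33, 6, 8, 9, 6, 9 and 5 counts in controls. Control 1, at 0.820 CPM, lay above 4 of the 7 Nrf2 libraries, and 3 Nrf2 libraries were above all controls. The difference for Gstm6, 1.55 on the log2 scale (SE 0.53), missed the threshold (adjusted p = 0.169, edgeR). All 7 Nrf2 eyes were nevertheless above their partners, mouse 4 by only 0.02 (exact sign-flip p = 0.0156 over 7 pairs). Across all genes tested, 5.65% were higher in all 7 mice.

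**Figure D2:**
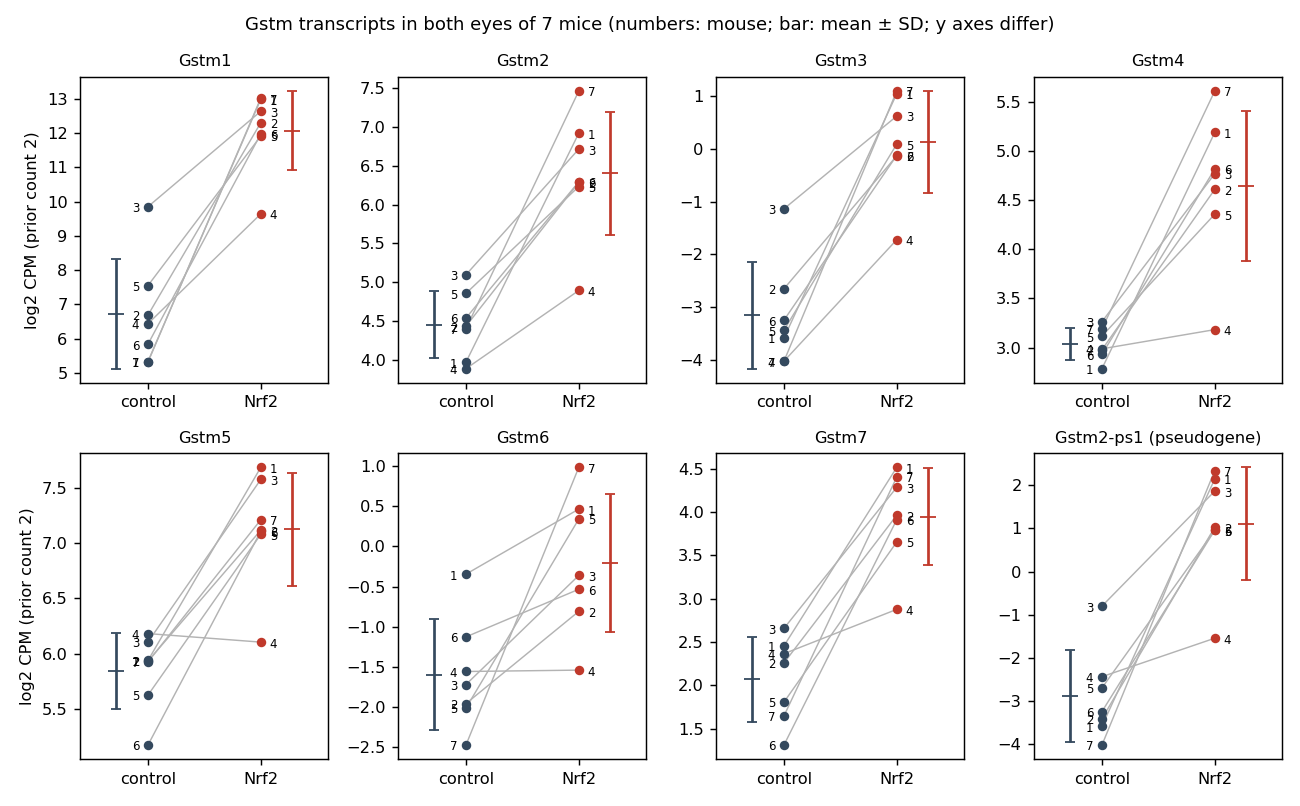
Level of each member and of the pseudogene Gstm2-ps1 in log2 CPM (prior count 2) in the control and Nrf2 eye of each mouse. Points are libraries, grey lines join the eyes of 1 mouse, numbers name the mouse and bars give the mean ± SD of 7 libraries. Nrf2 4 is the lowest Nrf2 library in every panel, and control 3 is the highest control for Gstm1, Gstm2, Gstm3, Gstm4, Gstm7 and Gstm2-ps1.

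The estimates were larger without the mice that stood apart. Without mice 3 and 4, the log2 fold changes were 2.20 for Gstm2, 5.11 for Gstm3, 1.92 for Gstm4, 1.52 for Gstm5, 1.86 for Gstm6 and 2.21 for Gstm7. The groups of 5 then no longer overlapped for any member but Gstm6, as held for 4.46% of all genes tested. The number of members called depended on single mice: leaving out each mouse in turn gave 2 (mouse 1 or 7), 3 (mouse 3, 5 or 6), 5 (mouse 2) or 6 (mouse 4). Gstm1 and Gstm2 passed in 7 of these 7 fits and Gstm7 in 5, while Gstm4 passed in 2 and Gstm5 in 1. Gstm3 passed in 2 of 6, because without mouse 3 it failed the filter on low counts.

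**Figure D3:**
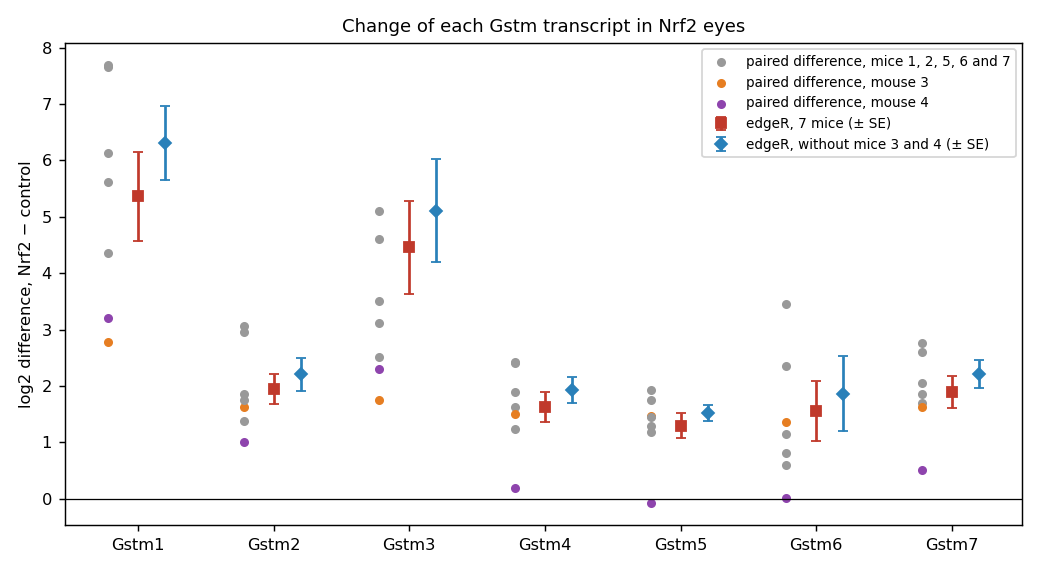
Log2 difference between the Nrf2 and control eye for each member. Circles are paired differences of log2 CPM (prior count 2) in single mice, with mice 3 and 4 in colour, squares are edgeR log2 fold changes ± SE over 7 mice and diamonds the same without mice 3 and 4. Gstm1 (5.36) and Gstm3 (4.46) stand above the other members, which lie between 1.30 and 1.95, and every diamond is above its square.

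Whether the members responded by different amounts was tested within mice. Of 21 pairs of members, 12 differed in their paired log2 differences with a prior count of 2 (exact two-sided sign-flip test over 7 mice, p = 0.0156 for each, 0.0273 after Benjamini-Hochberg adjustment). Gstm1 changed more than Gstm2, Gstm4, Gstm5, Gstm6 and Gstm7 in all 7 mice, by a mean of 3.40 (Gstm2) to 4.07 (Gstm5) on the log2 scale. Its difference from Gstm3 depended on the prior count, as the control counts of Gstm3 were so low. It was 2.08 with a prior count of 2 but 1.07 with 0.5, where Gstm3 changed more in 2 mice and the pair no longer passed (adjusted exact p = 0.144), leaving 11 pairs. Gstm3 changed more than Gstm2, Gstm4, Gstm5, Gstm6 and Gstm7. The size of these differences rests on the same low control counts, and how far reads of Gstm1 entered Gstm3 was not tested. Gstm7 changed more than Gstm5, by 0.59 ± 0.43 (SD, n = 7). With mice 3 and 4 left out, 12 pairs had 1 direction in all 5 mice, too few for the exact test to go below p = 0.0625. Between the remaining members no difference passed. For Gstm2 and Gstm7, as an example, it was 0.08 ± 0.59 (SD, n = 7), from -0.84 to 0.90 in single mice, which does not show that they changed alike.

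Levels of different genes were compared per length, as mean CPM per kilobase of the longest transcript. In control eyes the order was Gstm1 (162.5), Gstm5 (56.9), Gstm2 (22.1), Gstm4 (5.00), Gstm7 (3.33), Gstm6 (0.275) and Gstm3 (0.0646). Gstm1 and Gstm5 were not separated there, since their ranges overlapped and Gstm1 was higher in only 5 of 7 libraries. The control level of Gstm1 without mice 3 and 4 was 68.6, close to Gstm5 at 51.6 and above it in 3 of 5 libraries, and that of Gstm3 was 0.0304. In Nrf2 eyes Gstm1 reached 3806, far from Gstm5 (127.4), Gstm2 (84.1), Gstm4 (15.4), Gstm7 (11.2), Gstm3 (0.862) and Gstm6 (0.748). Gstm3 and Gstm6, which exchanged places, did not differ there beyond their spread (4 of 7 libraries), and the ranges of Gstm5 and Gstm2 and of Gstm4 and Gstm7 overlapped. On this scale Gstm1 ranked 9 among 34401 genes in Nrf2 eyes and 361 in control eyes, and without mice 3 and 4 it ranked 8 and 1012.

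The make-up of the family changed with this. Gstm1 held 85.8% to 94.9% of the summed CPM per kilobase in Nrf2 eyes and 27.1% to 87.1% in control eyes, where control 3 was the highest, and without mice 3 and 4 the ranges were 93.2% to 94.9% and 27.1% to 64.4%. Gstm5 held 2.01% to 8.79% in Nrf2 eyes and 7.72% to 50.9% in control eyes. Its share was thus lower in Nrf2 eyes although its own level rose. The summed counts of the 7 members, which do not depend on how reads were divided among them, came to 5177 ± 2474 CPM with Nrf2 and 308.1 ± 329.9 CPM without it (mean ± SD, n = 7 each), with more in the Nrf2 eye of all 7 mice. Without mice 3 and 4, control 3 (1045 CPM) among them, the sums were 5898 ± 1978 and 179.6 ± 68.9 CPM (n = 5 each). Without Gstm1 the sums were 271.0 ± 85.3 and 98.6 ± 17.2 CPM (SD, n = 7 each), with a log2 difference of 0.02 (mouse 4) to 1.98.

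**Figure D4:**
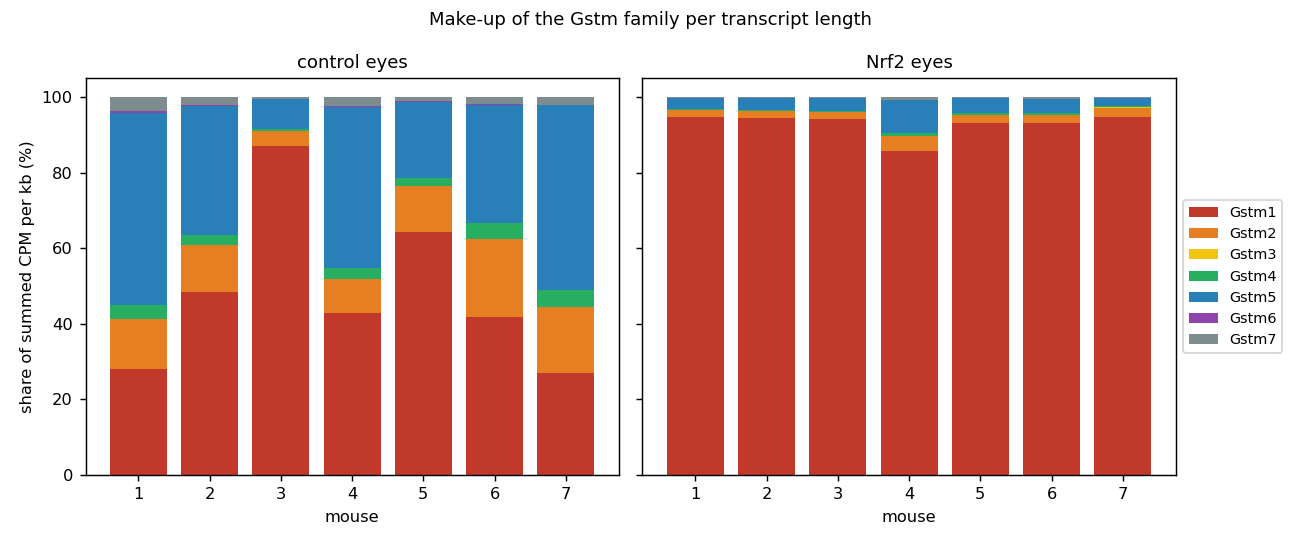
Share of each member in the family's summed CPM per kilobase of transcript, in percent, for control (left) and Nrf2 (right) eyes of mice 1 to 7. Gstm1 makes up 85.8% to 94.9% of every Nrf2 bar, and 87.1% in control 3, the control bar most like them.

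Within each group, the members were set against the vector transcript, with 14 relations in all. Among the 7 Nrf2 eyes, Pearson's r of log2 CPM was 0.995 for Gstm1 (exact permutation p = 0.00119, adjusted 0.00602, Spearman's rho 0.93, exact p = 0.00675) and 0.977 for Gstm7 (exact p = 0.000397, adjusted 0.00556, rho 0.96, exact p = 0.00278). It lay between 0.79 (Gstm6) and 0.97 (Gstm3) for the others, and all 7 members passed after adjustment by r. By rho, Gstm6 did not pass (0.75, adjusted exact p = 0.103). Without Nrf2 1 and Nrf2 4, the eyes farthest from the median vector level, none of the relations passed after adjustment (0), and r was 0.95 for Gstm1 and 0.98 for Gstm7 (unadjusted exact p = 0.0250 and 0.0167, n = 5), 0.63 for Gstm5 and 0.49 for Gstm6 (unadjusted exact p = 0.275 and 0.400). For Gstm5 and Gstm6 r was thus lower without those eyes, though 5 eyes are few for an exact test. Leaving out Nrf2 4 alone, an alternative chosen after the data were seen, gave r of 0.96 for Gstm1 (exact p = 0.0153, n = 6, adjusted 0.0924) and 0.98 for Gstm7 (exact p = 0.00278, adjusted 0.0389). It gave 0.79 for Gstm5 (exact p = 0.0806, adjusted 0.161) and 0.56 for Gstm6 (exact p = 0.204, adjusted 0.318). Spearman's rho for Gstm5 was then 0.89 (unadjusted exact p = 0.0333).

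In the 7 control eyes, Gstm1 was the only member related to the vector transcript after adjustment (r = 0.89, exact permutation p = 0.00198, adjusted 0.00602, rho 0.86, exact p = 0.0238). Without control 1 and control 6, r was 0.98 (unadjusted exact p = 0.0167, n = 5), and without control 3 it was 0.86 (exact p = 0.0403, n = 6, adjusted 0.0940). For the other members r in control eyes ran from -0.54 (Gstm6) to 0.73 (Gstm4). Both measures come from the same library and share its total, and whether members differ in their relation was not tested. By design the control eyes received the GFP vector alone, so no injected dose of Nrf2 is known for them. The source of the human NFE2L2 transcript in these eyes was not tested. The samples were sequenced in 2 runs that the labels do not assign to libraries, so no relation could be computed within a run.

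**Figure D5:**
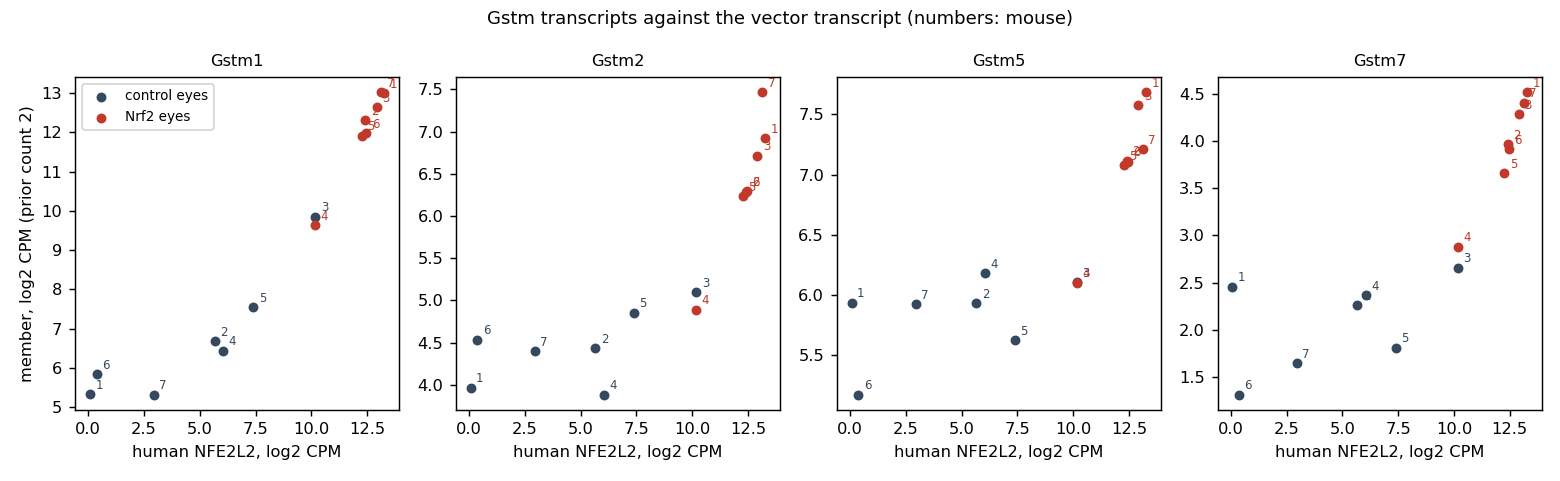
Level of Gstm1, Gstm2, Gstm5 and Gstm7 (vertical axes, log2 CPM with prior count 2, which differ between panels) against human NFE2L2 (horizontal axes, log2 CPM), 1 point per library, numbered by mouse. Control 3 and Nrf2 4 sit together in each panel, between the other libraries of both groups along the horizontal axis. For Gstm5 both (6.10) lie within the range of the other controls, below control 4 (6.18). Gstm1 climbs with the vector transcript within the control eyes as well (r = 0.89). By design these eyes received no Nrf2 vector, and the source of the transcript in them was not tested.

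The genes whose levels followed Gstm1 most closely across the 14 libraries, among 12020 with a mean of at least 5 CPM, were Acox2 (r = 0.998), Ccer2 (0.992), Gclc (0.990), Cyp1a1 (0.990) and Hmox1 (0.989). Acox2 encodes a peroxisomal oxidase of branched-chain acids, Gclc the catalytic subunit of the first enzyme of glutathione synthesis, Cyp1a1 a monooxygenase and Hmox1 the heme-degrading oxygenase. Both groups enter these values, which are a description. Within the Nrf2 eyes they were 0.96 to 0.99 and within the control eyes 0.92 to 0.99, and over the 10 libraries without mice 3 and 4 they were 0.988 to 0.998. Of the other members, Gstm3 was most like Gstm1 over the 14 libraries (0.975) and Gstm6 least (0.698). Within the Nrf2 eyes r with Gstm1 ran from 0.79 (Gstm6) to 0.98 (Gstm7). Within the control eyes it was 0.85 for Gstm3, 0.76 for Gstm2, 0.65 for Gstm4, 0.48 for Gstm7, 0.27 for Gstm5 and -0.25 for Gstm6. Gstm3 shares sequence with Gstm1, and how far reads of Gstm1 entered its values was not tested.

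Genes around the cluster were examined to see whether the change ended at its borders. Csf1, a macrophage growth factor and the third tested gene on the Gstm5 side, was higher in Nrf2 eyes (log2 fold change 1.45, SE 0.22, adjusted p = 0.0136, edgeR). Gm5075 and Eps8l3, which lie between it and Gstm5, did not pass (-0.69 and 0.57, adjusted p = 0.360 and 0.388). On the Gstm4 side, Ampd2, an AMP deaminase, and Gnai3, a G protein subunit, did not pass (-0.29 and -0.02, adjusted p = 0.271 and 0.947), whereas the cone transducin gene Gnat2, 1 of the 7 cone markers above, was lower (-1.69, SE 0.32, adjusted p = 0.0294). Csf1 (1.69) and Gnat2 (-1.84) passed again without mice 3 and 4, and the other 4 did not.

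Because Nrf2 binds antioxidant response elements, the promoter windows of the members (250 bases before to 50 after each start, RefSeq, GRCm38.p6) were searched on both strands for the core TGACNNNGC, and for the AP-1 sites TGACTCA and TGAGTCA, which some such elements contain. The core occurred in 12.4% and the AP-1 sites in 5.20% of 32851 windows of this length, which is 14% and 5.95% of 27025 genes. The 2 of 7 members with a core were Gstm5 (chr3:107895812-107895820) and Gstm7 (chr3:107931735-107931743). Both are shown because they are the only matches among the 7 members, on the gene's strand with the core in capitals.
Gstm5: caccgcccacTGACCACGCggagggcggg
Gstm7: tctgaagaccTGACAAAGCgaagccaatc
The Gstm5 window also held 1 AP-1 site, TGACTCA. No match was found in the windows of Gstm1, Gstm2, Gstm3, Gstm4 and Gstm6, which says only that these letters are not in these windows. A match is not evidence of binding.

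The steps around the mu class were followed in 3 lists, of which 14 of 44 tested genes were higher and none lower (0), where 2.94% of all genes tested were higher. The lists were chosen with earlier results of these data known. The paper already names Gclc, Gclm, Gss, Gsr, Slc7a11 and Abcc4 as raised by Nrf2, so these counts are a description. Leaving out mice 3 and 4, 14 were again higher, where 2.98% of genes were, and 1, Gsto1, was lower (-2.004, adjusted p = 0.0390, edgeR). Glutathione supply rose most broadly, in 5 of 6 genes with a median log2 fold change of 2.61. These were Gclc (4.16, SE 0.50), Gclm (2.99), Gss (2.54), Gsr (2.10) and Slc7a11 (2.68), each with adjusted p = 0.00936 (edgeR). They make, recycle and feed glutathione, the substrate of the Gstm enzymes, and Slc3a2, the chaperone subunit of the cystine transporter, did not pass (0.40, adjusted p = 0.148).

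Of the other glutathione S-transferase classes, 5 of 17 tested genes were higher, with a median log2 fold change of 0.12. These were the alpha-class genes Gsta1 (3.51), Gsta2 (3.82) and Gsta3 (2.24) and the pi-class genes Gstp1 (3.40) and Gstp2 (3.75). The alpha-class gene Gsta4, whose enzyme acts on lipid aldehydes such as hydroxynonenal, did not pass (1.17, adjusted p = 0.145). No theta, omega, zeta, kappa, sigma or microsomal member passed, Gsto1 among them (-1.48, SE 0.70, adjusted p = 0.309), though it did without mice 3 and 4. Gstp1 and Gstp2 are near-identical copies, so their division of reads is uncertain. Of 21 tested genes of conjugate export and mercapturate formation, 4 were higher, with a median of 0.12. The export pumps Abcc1 (1.39), Abcc3 (2.88) and Abcc4 (2.64) rose, as did Ggt5 (2.71), a gamma-glutamyl cleaving enzyme. Acy3, which removes the acetyl group of mercapturates, was higher in 7 of 7 mice but did not pass (0.75, adjusted p = 0.0936).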

How the data were processed

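RPE RNA of both eyes of 7 mice was amplified with a low-input kit and sequenced, polyA selected, in 14 libraries. The paper reports fewer paired replicates for this comparison than the 7 labelled pairs used here, and it does not say which it used. The authors deposited whole-number estimated counts per gene without normalization. Per the submitters' processing notes they used FastQC and Salmon 0.9.1, and the study names build mm10 with Ensembl annotation. The paper also describes counts of aligned reads from featureCounts. That the deposited counts are Salmon's estimates was inferred from the row set only. Counts of aligned reads would treat reads shared by paralogs in another way. Estimated counts divide reads between paralogs by a model, and reads were amplified with no molecular identifier, so counting error understates the error.

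CPM are counts per total of a library (16548349 to 50543008). All 14 libraries were fitted with edgeR 4.0.16 (R 4.3.3) with mouse and group as terms, TMM and filterByExpr (minimum count 10), adjusting over 16289 genes. The human NFE2L2 row was left out of gene counts. SEs come from the F statistic. Exact tests enumerated all 128 sign patterns or all orders (scipy 1.17.1). The labels number the eyes within each group, and eyes of the same number were taken as a pair from the same mouse. Every paired result rests on this reading. Deviations from the group means correlated between paired eyes at -0.306 (mouse 4) to 0.304 (mouse 5) over 16289 genes, and mouse 6 was also negative (-0.165). These values do not by themselves bear out the pairing. Positions, lengths and 31-base words come from GENCODE M21 (GRCm38), promoters from RefSeq. Of 34452 gene rows, 34401 matched. The fit was also run on simulated counts, drawn from 1 mean per gene with no mouse effect. That run does not bear on the pairing or on control 3 and Nrf2 4. All 7 members were named, with list members past the threshold, the 5 genes most like Gstm1 and the 3 nearest tested genes on either side. The members and lists were chosen with earlier results of these data known. Alternatives were no block for mouse, RLE, DESeq2 1.42.0, voom with quality weights (limma 3.58.1), no filter, each mouse left out and mice 3 and 4 left out. Cell type markers other than those given are not described here.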

Additional observations from a re-analysis of the deposited data

Results flagged for a closer look

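Each group of 7 values was examined for a highest or lowest library far from the rest (Dixon's criterion). Of 23 groups, 5 held such a value, and chance gives about 1 in 20 for a single group. The groups are not independent, as Gstm1 made up 88.6% of the summed counts of the 7 members in control 3. Control 3 was the far library for Gstm1, at 925.2 CPM, for Gstm3, at 0.393 CPM from 13 counts, and for the sum of the 7 members, at 1045 CPM. The vector transcript in that library was 1163 CPM. For Gstm6 the far library was control 1, at 0.820 CPM from 33 counts. In the paired differences of Gstm5, mouse 4 was the far value, at -0.0773 on the log2 scale.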

How the results depend on the processing

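The 6 members called stayed 6 without the replicate block for mouse, with RLE, DESeq2, no filter and without mice 3 and 4, and became 7 with voom, where Gstm6 passed (log2 fold change 1.91, adjusted p = 0.0299, limma). No member changed sign in any of the 13 alternatives that gave a value. With each mouse left out in turn the number called was 2 to 6: 2 without mouse 1 or mouse 7, 3 without mouse 3, 5 or 6, 5 without mouse 2 and 6 without mouse 4. Over these fits the log2 fold changes were 4.93 to 5.83 for Gstm1, 1.76 to 2.10 for Gstm2, 3.97 to 4.73 for Gstm3, 1.49 to 1.85 for Gstm4, 1.18 to 1.51 for Gstm5, 1.18 to 1.80 for Gstm6 and 1.74 to 2.11 for Gstm7. The 14 pathway genes called became 11 to 20.

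Of 12 pairs of members that differed, 11 passed with a prior count of 0.5, and 0 with any mouse left out. Exact tests on 6 mice cannot go below p = 0.0312, and all 12 pairs had 1 direction in all 7 mice. Of 8 relations with the vector transcript that passed, 0 did so without the 2 farthest eyes and 1 (Gstm7) without control 3 and Nrf2 4. With merged exon length in place of the longest transcript, levels per kilobase were 53.3 (Nrf2) and 13.98 (control) for Gstm2 and 0.443 and 0.163 for Gstm6, with the order of members unchanged in both groups. Low counts limit Gstm3 and Gstm6.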
